A study of Mus musculus with 30 samples.

Results

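The cytosolic ribosomal protein genes of mouse CD4 T cells were followed across 10 groups of in vitro polarised cells. Members were the rows whose symbol begins with Rpl or Rps and a digit, together with Rplp0, Rplp1, Rplp2 and Rpsa, leaving out the S6 kinase genes (Rps6k). This gave 91 of the 23420 genes in the tables: 77 canonical subunit genes (43 of the large subunit, 31 of the small subunit and 3 of the stalk), 8 paralogs, 5 pseudogenes, and Rps19bp1, which encodes a protein that binds Rps19 and is not itself a ribosomal subunit. These classes follow the symbols. RefSeq lists the entry matched to Rps4y2, here a paralog, as a transcribed pseudogene, and Rpl31-ps12 and Rpl34-ps1 as protein coding. After the filter on low counts 87 members were tested. The paralogs Rpl10l, Rpl39l and Rpl3l and the pseudogene Rps19-ps3 were not; they averaged 0.105, 0.673, 0.0573 and 2.98 TPM. All 77 canonical genes passed the filter, and Fau and Gnb2l1, genes of related proteins that the symbol rule leaves out, are given apart.

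Ribosomal proteins assemble with ribosomal RNA into the small subunit, which decodes the mRNA, and the large subunit, which forms peptide bonds. The acidic proteins Rplp0, Rplp1 and Rplp2 form a stalk on the large subunit that recruits elongation factors. Most mammalian ribosomal protein mRNAs begin with a short run of pyrimidines (the TOP element), and their translation is controlled together through the mTOR pathway. Activated T cells are known to make many ribosomes as they grow and divide.

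Naive CD4 T cells came from C57BL/6 mice carrying 2 reporters, GFP under Foxp3 (the regulatory T cell factor) and surface Thy1.1 under IL-10 (an anti-inflammatory cytokine). They were activated with 2.5 µg/ml soluble anti-CD3 and irradiated, CD4-depleted splenocytes, 6 per T cell, and at 72 h GFP-negative cells were sorted again by the Thy1.1 reporter. The protocol text gives the same Thy1.1 sign for both sorted compartments, so IL-10 positive and negative groups follow the sample titles. The groups were IL-10 positive and negative cells of each of 5 cultures: Th1 (IL-12 at 20 ng/ml), Th2 (IL-4 at 20 ng/ml), non-pathogenic Th17 (25 ng/ml of IL-6 with 2 ng/ml of TGF-β1), pathogenic Th17, here pTh17 (25 ng/ml of IL-6, with IL-1β and IL-23 at 20 ng/ml each), and Tr1 (IL-27 at 25 ng/ml). Each group had 3 libraries, each from 2000 cells. The labels do not say whether replicates are separate cultures or animals, so each p-value refers to the spread among these libraries only, and that spread may be technical. Cells of all groups carried both reporters, and the purity of a compartment rests on that sort.

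The sequences around the start of 4 members are shown because a pyrimidine run at the start is the feature this family is known for. They are, of the members with an entry in the promoter table, the 2 with the strongest mean difference between IL-10 compartments and those with the most copies of CTTTC near the start. Each is read 5′ to 3′ on the gene's strand, 20 bases before to 30 bases after the annotated start, from RefSeq's GRCm38.p6 promoter table, with CTTTC in capitals. Rps27 lies on chromosome 3 (gene 90212667 to 90213648, minus strand), Rps27l on chromosome 9 (gene 66944624 to 66949522, plus strand, with the start used here inside that span), and Rpl35 and Rpl7a on chromosome 2.
Rps27l, chr9:66946066-66946115, plus strand: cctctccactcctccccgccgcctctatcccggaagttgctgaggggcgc
Rps27, chr3:90213619-90213668, minus strand: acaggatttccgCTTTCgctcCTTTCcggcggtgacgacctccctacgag
Rpl35, chr2:39005102-39005151, minus strand: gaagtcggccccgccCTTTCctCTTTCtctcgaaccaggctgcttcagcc
Rpl7a, chr2:26910787-26910836, plus strand: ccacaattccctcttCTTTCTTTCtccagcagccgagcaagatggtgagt
Rps27, Rpl35 and Rpl7a each held 2 copies, which overlap in Rpl7a, and the Rps27l window held none. Of the 77 canonical genes 57 had an entry in the promoter table. CTTTC on the sense strand in this window was in 19 of those 57 (33.3%), against 6.46% of all 27025 promoters. CCGGAAG on either strand, over the 300 bases from 250 before to 50 after the start, was in 23 (40.4%), against 9.12% of all promoters. AAGATGGC was in 7.02% against 2.88%, CACGTG in 8.77% against 7.24%, and TATAAA in 8.77% against 14.2%, each on either strand. A match describes letters in a window and is not evidence of a bound factor. The 91 members lay on 19 chromosomes, with 14 of them on chromosome 7, the most on any chromosome.

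Library totals ran from 4.39 M to 11.9 M expected counts (M, counts divided by 1e6), and members held 6.05 to 10.8% of them. The ribosomal RNA precursor row Rn45s held a further 6.71 to 26.6%. Il10 and Thy1 were higher in each IL-10 positive library than in each negative library of its culture; the lowest Il10 values in positive cells were in Th17, at 21.5 to 24.8 CPM against 0.760 to 3.25 CPM in Th17 negative cells. The T cell genes Cd3e, Cd3d, Cd3g and Cd4 summed to between 1938 and 3248 CPM in every library. The third library of Tr1 positive cells had the highest share of its counts in Rn45s, at 26.6%, and the third library of Tr1 negative cells was next at 25.1%.

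Canonical ribosomal protein genes were among the most abundant transcripts, and their levels were uneven. On the TPM scale, which corrects for gene length, the mean of a canonical gene over all libraries ran from 59.2 (Rpl34) to 6877 TPM (Rpl41), with a median of 2630 TPM, and 64 of 77 lay between 1000 and 5000 TPM. The 5 most abundant were Rpl41, which encodes a very short peptide of the large subunit, Rps4x (6501 TPM), the stalk genes Rplp1 (6021 TPM) and Rplp0 (5400 TPM), and Rpl19 (5257 TPM). The 5 lowest were Rpl34, Rpl30 (150 TPM), Rpl22 (227 TPM), Rps15a (256 TPM) and Rpl26 (474 TPM). The row of Rps15a has a listed length of 5134 bases, the longest of any member. Rpl34 may share reads with its near-identical copy Rpl34-ps1, which held 97.3% of the CPM of that pair. Rps15a-ps4 and Rps15a-ps6 held 21.6% of the CPM of the Rps15a family and Rpl31-ps12 held 5.34% of that of Rpl31. The split within these families may depend on how RSEM divided reads.

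Summed over all 91 members, the family held less of the TPM in IL-10 positive than in negative cells in 4 of 5 cultures. In Th1 the 3 libraries were at 18.6, 17.9 and 17.7% in IL-10 positive cells, against 24.8, 25.9 and 26.2% in negative cells. The shares were 19.7, 20.5 and 19.6% in Th2 positive cells and 22.5, 22.6 and 23.5% in Th2 negative cells. In both cultures all positive libraries lay under all negative ones, with the wider gap in Th1. For pTh17 the shares were 24.1, 24.7 and 24.3% in positive cells and 27.8, 26.9 and 28.0% in negative cells, and for Tr1 they were 20.2, 20.6 and 19.7% in positive cells and 23.9, 22.7 and 24.3% in negative cells. Th17 was the exception, at 20.9, 20.2 and 20.7% in positive cells and 20.3, 19.5 and 19.3% in negative cells, and there the groups overlapped. The log2 ratio of the Th17 means was 0.07 on TPM and 0.23 as a share of expected counts. Ordered by mean, the group shares were 27.6 ± 0.585% in pTh17 negative, 25.6 ± 0.751% in Th1 negative, 24.3 ± 0.312% in pTh17 positive, 23.7 ± 0.808% in Tr1 negative, 22.9 ± 0.562% in Th2 negative, 20.6 ± 0.347% in Th17 positive, 20.2 ± 0.458% in Tr1 positive, 19.9 ± 0.498% in Th2 positive, 19.7 ± 0.535% in Th17 negative and 18.1 ± 0.463% in Th1 positive cells (SD, n = 3 each). Neighbours in this order overlapped from pTh17 positive through Tr1 negative to Th2 negative cells, and again from Th17 positive through Tr1 positive and Th2 positive to Th17 negative cells; pTh17 negative, Th1 negative and Th1 positive cells each stood apart from their neighbours. Bulk libraries cannot tell fewer cells that express a gene from less of its RNA per cell.

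**Figure D1:**
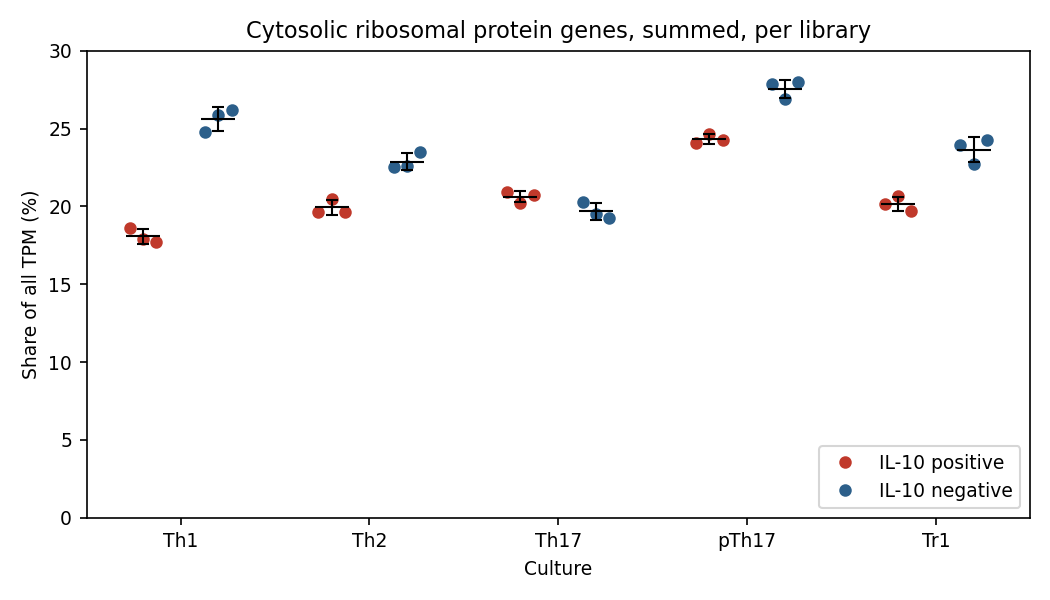
Share of all TPM held by the 91 members (y axis, percent) in each library (points) by culture, IL-10 positive in red on the left and negative in blue on the right; black bars are the group mean ± SD (n = 3). The red points lie under the blue in Th1, Th2, pTh17 and Tr1, and overlap them in Th17, where the means are 20.6 and 19.7%.

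In Th1 cultures nearly the whole family was lower in IL-10 positive cells. With p-values from edgeR's quasi-likelihood test, adjusted after Benjamini-Hochberg over all genes, 77 of 87 members fell and 2 rose, where 20.4% of all genes tested were called lower and 23.5% higher (43.8% in all). The median log2 fold change of members was −0.49, against −0.02 over all genes tested. By role, 39 of 43 large subunit, 30 of 31 small subunit and all 3 stalk genes fell. Rps7, of the small subunit, had 545, 547 and 514 CPM (expected counts scaled to the TMM-adjusted library size) in positive cells, against 897, 871 and 922 CPM in negative cells. Its groups were far apart, at a log2 fold change of −0.74 ± 0.08 (SE, adjusted p = 3.8e-10 by edgeR's quasi-likelihood test). For Rps28, also of the small subunit, positive cells had 333, 300 and 301 CPM and negative cells 554, 499 and 514 CPM, a log2 fold change of −0.75 ± 0.07. Its groups did not overlap either. The 5 canonical genes that passed no threshold in Th1 were Rpl26, Rpl30, Rpl34, Rpl41 and Rps2. Rpl41, the most abundant member per length, had 1647, 1543 and 1544 CPM in positive cells and 1534, 1481 and 1509 CPM in negative cells, with no overlap and no call (0.07 ± 0.07).

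In Th2 cultures the same direction held at a smaller size. Of 87 members 60 fell and 1 rose, where 9.49% of all genes were called lower and 12.3% higher (21.8% in all), and the median log2 fold change of members was −0.22, against 0.01 over all genes tested. Large subunit genes fell in 29 of 43 cases, small subunit genes in 25 of 31, and stalk genes in 3 of 3. Rpl37, of the large subunit, had 288, 318 and 284 CPM in positive cells and 372, 346 and 428 CPM in negative cells, a log2 fold change of −0.36 ± 0.08. All positive libraries lay under the negative ones. The pseudogene rows Rps15a-ps4 (−0.38 ± 0.12) and Rps15a-ps6 (−0.37 ± 0.10) fell beside Rps15a itself (−0.34 ± 0.07), and may share its reads. The third Th2 negative library ran high over the family; without it the members called were 27 (26 lower), without the third positive library 36 (35 lower), and without the first positive library 40 (39 lower). Rn45s was at 6.71, 8.07 and 8.26% of counts in positive cells and 9.83, 10.7 and 10.5% in negative cells, without overlap, and its part in the result was not tested.

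In pTh17 cultures 73 of 87 members fell and 1 rose, where 8.33% of all genes were called lower and 10.1% higher (18.5% in all). The median log2 fold change of members was −0.26, against 0.00 over all genes tested, and 39 of 43 large subunit, 29 of 31 small subunit and 3 of 3 stalk genes fell. Members ranged from −0.65 to 0.31 on this scale. Rpl36, a large subunit protein, had 320, 307 and 327 CPM in positive cells, against 408, 401 and 469 CPM in negative cells, a log2 fold change of −0.42 ± 0.09. Rps21 had 230, 227 and 226 CPM in positive cells and 308, 276 and 313 CPM in negative cells, a log2 fold change of −0.39 ± 0.09. Both of these genes kept their groups apart. Rps7 (−0.39 ± 0.08) and Rpl37a (−0.38 ± 0.08) fell by a similar size. Markers of another cell type moved in this culture: the 10 B cell genes summed to 227 to 304 CPM in positive cells and 109 to 122 CPM in negative cells, all 8 that were tested rose, and none was at 0 in either group. The 8 myeloid genes summed to 24.8 to 33.8 CPM in positive cells and 11.7 to 13.5 CPM in negative cells, with 4 of 6 tested higher and Lyz2 at 0 in negative cells. Their part in the result was not tested.

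In Tr1 cultures fewer members changed. Of 87 members 38 fell and 5 rose, where 14.2% of all genes were called lower and 20.5% higher (34.7% in all), and the median log2 fold change was −0.16, against 0.05 over all genes tested. Large subunit genes fell in 18 of 43 cases and small subunit genes in 17 of 31, and the stalk genes passed no threshold (Rplp0 −0.03 ± 0.06, Rplp1 −0.14 ± 0.07, Rplp2 −0.12 ± 0.07). Rps29 had 293, 315 and 303 CPM in positive cells, against 398, 358 and 441 CPM in negative cells, a log2 fold change of −0.40 ± 0.07. Rps28 had 336, 363 and 357 CPM in positive cells and 451, 426 and 505 CPM in negative cells, a log2 fold change of −0.39 ± 0.07. Positive libraries were under negative ones for both small subunit genes. Rps21 (−0.38 ± 0.09) and Rpl12, which sits at the base of the stalk (−0.37 ± 0.07), also fell. The 5 members that rose were Rps27l, Rpl7l1, Rps2, Rpl41 and Rpl7a; the Rps2 call (0.48 ± 0.16) was lost without the second positive library (0.41), the third positive library (0.38) or the third negative library (0.43) and with the length offset (0.22). Rpl41 had 992, 1153 and 1088 CPM in positive cells and 881, 776 and 937 CPM in negative cells, a log2 fold change of 0.32 ± 0.07 that was −0.01 with an offset for gene length, which also put the median of all genes at −0.12. The count of calls in Tr1 was the one that moved most with the fit. It was 22 (17 lower, members' median −0.10) without the third negative library and 54 (median −0.24) without the second negative library. With the length offset it was 80 (78 lower). The shares of all genes called in these fits are not given here, so no direction of the family is read from them.

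**Figure D2:**
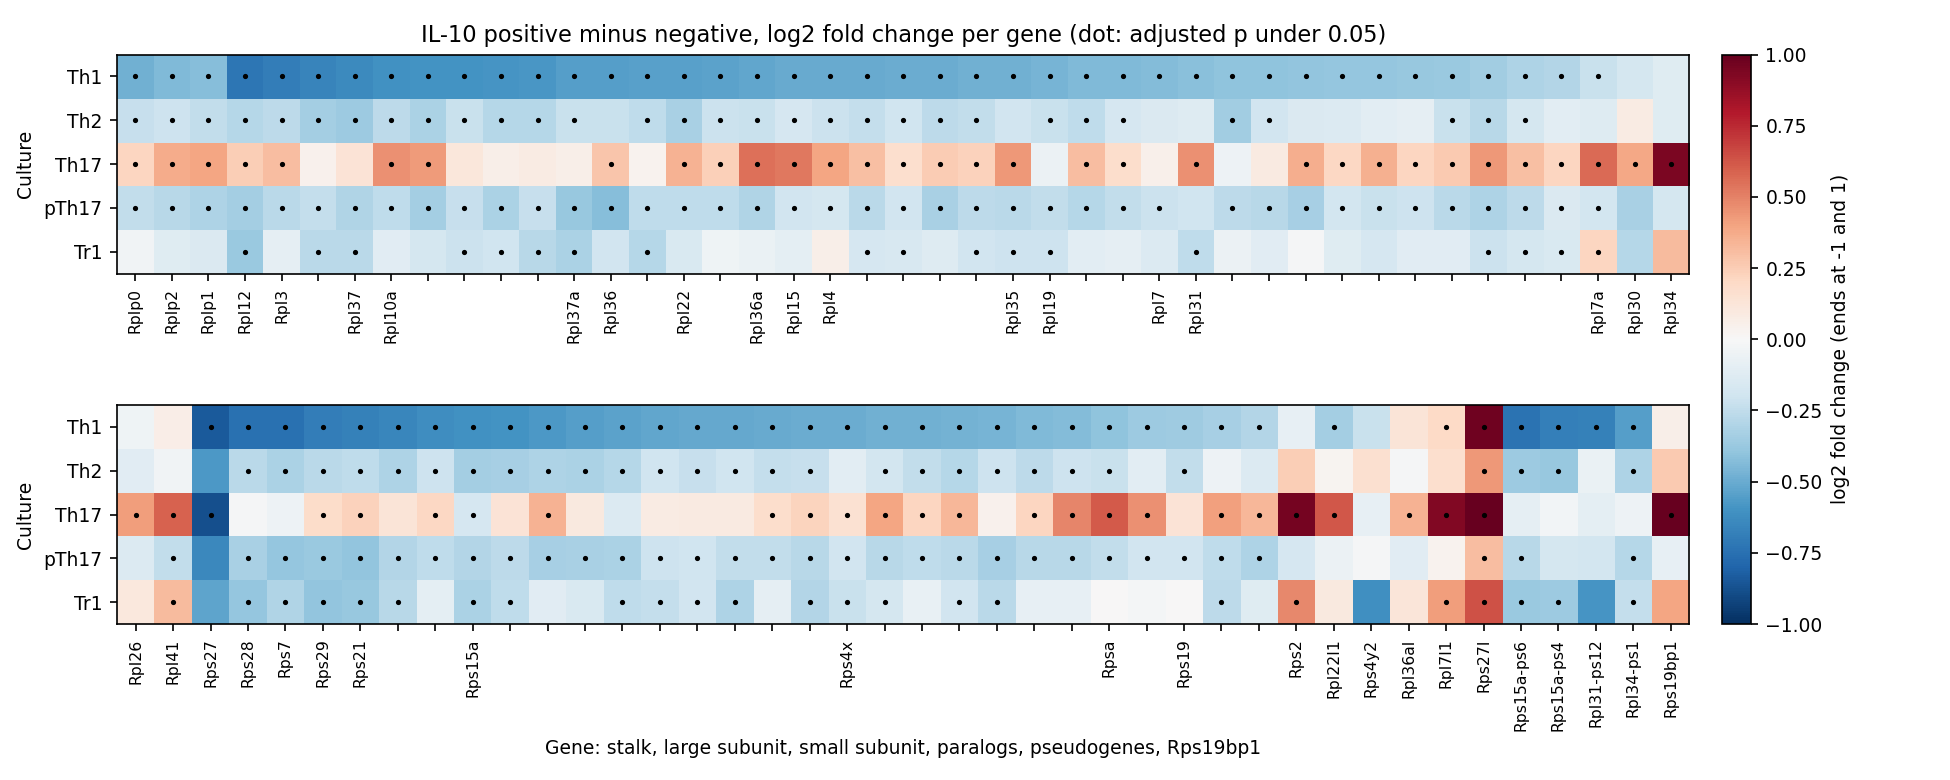
Log2 fold change, IL-10 positive minus negative, of 85 of the 87 members tested (columns, ordered by role and then by the Th1 value, with the genes discussed named) in 5 cultures (rows); blue is lower and red higher in positive cells, the colour scale ends at −1 and 1, and a dot marks an adjusted p under 0.05 by edgeR. The rows of Th1, Th2 and pTh17 are mostly blue, the Th17 row is mostly red, and the column of Rps27l is red in all 5.

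Th17 cultures differed in direction. There 57 of 87 members rose and 2 fell, where 29.2% of all genes were called higher and 28.9% lower (58.2% in all), and the median log2 fold change of members was 0.23, against −0.04 over all genes tested. Large subunit genes rose in 31 of 43 cases, small subunit genes in 18 of 31 and stalk genes in 3 of 3. Rpsa, a small subunit protein first described as a laminin receptor precursor, had 2920, 2749 and 2641 CPM in positive cells, against 2011, 1701 and 1711 CPM in negative cells. Its log2 fold change was 0.62 ± 0.06 (adjusted p = 1.07e-11 by edgeR's quasi-likelihood test), with the groups well apart. Rpl7a, of the large subunit, had 746, 720 and 716 CPM in positive cells and 545, 463 and 462 CPM in negative cells, a log2 fold change of 0.57 ± 0.06. Rps2, which lies by the mRNA entry channel, had 987, 1181 and 949 CPM in positive cells and 540, 590 and 474 CPM in negative cells, a log2 fold change of 0.96 ± 0.16. Rps19bp1, at much lower counts, had 14.7, 18.9 and 16.7 CPM in positive cells and 6.06, 8.06 and 7.43 CPM in negative cells, a log2 fold change of 1.22 ± 0.19. In each of these genes all positive libraries exceeded all negative ones. Rpl34 rose by 0.94 ± 0.19 while its copy Rpl34-ps1, with most of the reads of that pair, was at −0.05 ± 0.07, and the pair summed to 426 ± 12.2 CPM in positive cells and 432 ± 46.8 CPM in negative cells (SD, n = 3 each). The 2 members that fell were Rps27 and Rps15a (−0.17 ± 0.07); the Rps15a call was lost in 4 of the fits that left out a library.

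The rise in Th17 depended on gene length. Members are short, 703 bases at the median (range 327 to 5134), and 71 of 91 are under 1000 bases, against a median of 2779 bases and 7.79% under 1000 for all genes tested. The 913 other genes under 1000 bases had a median log2 fold change of 0.31 in Th17, against 0.23 for the 69 members of that length. With an offset for length in each library, 58 members were called in Th17, of which 18 were higher and 40 lower, at a median of −0.08 for members and −0.07 for all genes. The shares of all genes called higher and lower in that fit are not given here, so no direction of the family is read from these counts. In the other 4 cultures members lay under other short genes: −0.48 against 0.25 in Th1, −0.22 against 0.03 in Th2, −0.27 against −0.05 in pTh17, and −0.17 against 0.24 in Tr1. Th17 positive libraries were also deeper, at 9.41 to 9.77 M counts, against 5.70 to 5.92 M counts in Th17 negative cells. With every library thinned to one depth 52 members rose and 3 fell. The shares of all genes called in the thinned fit are not given here. The B cell genes summed to 19.6 to 23.3 CPM in Th17 positive cells and 5.90 to 7.45 CPM in Th17 negative cells, with 4 of 8 tested higher, 1 lower and Pax5 at 0 in positive cells; their part in the result was not tested. The cause of the dependence on length was not tested.

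**Figure D3:**
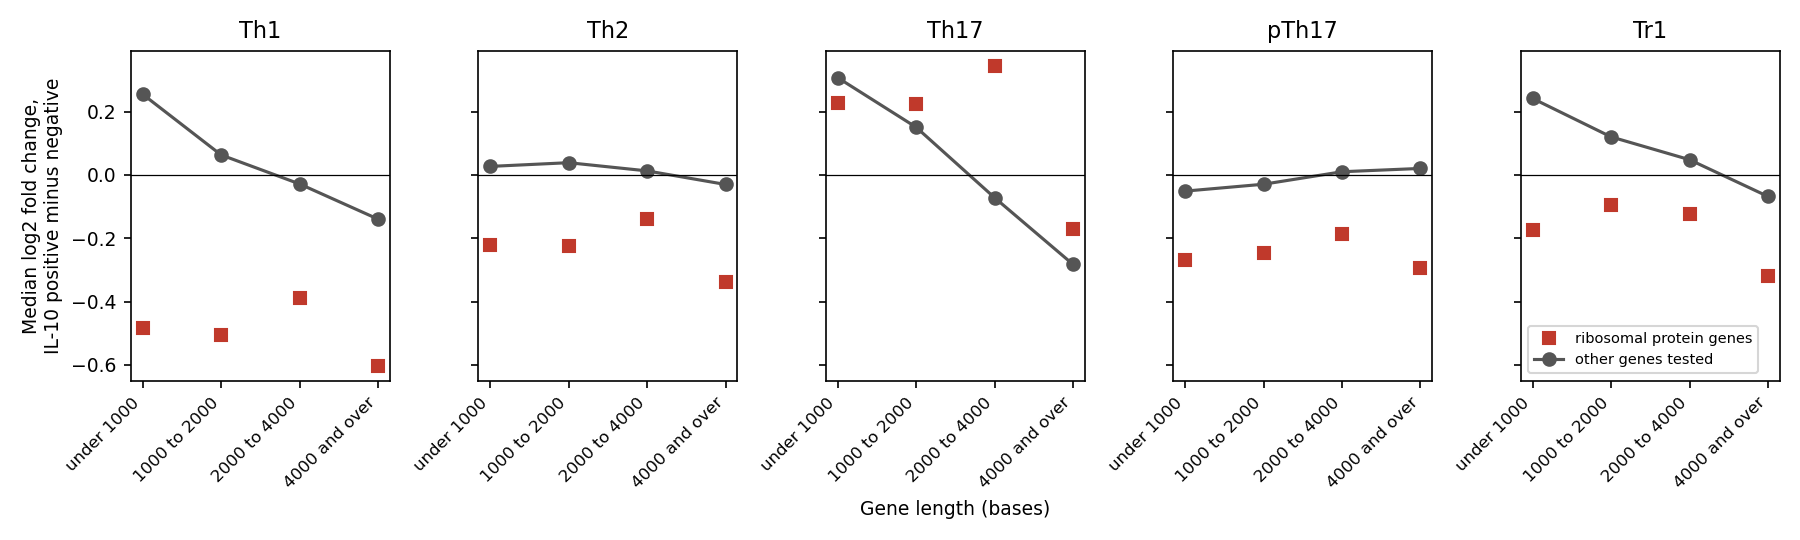
Median log2 fold change, IL-10 positive minus negative (y axis), of members (red squares) and of other genes tested (grey circles) in 4 bins of gene length in bases (x axis), 1 panel per culture; the bins hold 69, 14, 3 and 1 members from left to right. In Th17 the squares of the first pair of bins lie near the grey line, and in Th1, Th2, pTh17 and Tr1 they lie under it.

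Over the 5 cultures together, the mean of the differences was called lower in 73 and higher in 6 of 87 members, where 28.2% of all genes were called lower and 29.6% higher (57.8% in all). The lowest means were those of Rps27 (−0.69 ± 0.14), Rps15a-ps6 (−0.37 ± 0.05), Rps7 (−0.36 ± 0.04) and Rps28 (−0.35 ± 0.03), and the highest those of Rps27l (0.75 ± 0.05), Rps19bp1 (0.37 ± 0.09), Rpl7l1 (0.35 ± 0.03) and Rps2 (0.29 ± 0.07). That mean hides unequal parts: in the test that the 5 differences are equal, 83 of 87 members passed, where 60.7% of all genes did. The exceptions were Rpl26, Rpl31-ps12, Rps27 and Rps4y2. The smallest p-value among members was that of Rpsa (adjusted p = 1.07e-12 by edgeR's quasi-likelihood test), with log2 fold changes of −0.41 in Th1, −0.22 in Th2, 0.62 in Th17, −0.24 in pTh17 and 0.00 in Tr1. Rpl4, which lines the peptide exit tunnel, followed at −0.50, −0.22, 0.40, −0.17 and 0.06 in the same order of cultures. Rpl3, near the peptidyl transferase centre, was at −0.69, −0.26, 0.31, −0.27 and −0.09. These genes, picked by that test, shared a pattern without the length offset: lowest in Th1, above 0 in Th17, and near 0 in Tr1. Rpl10a, of the mobile L1 stalk, Rpl15, Rpl7a and Rpl36a were also among the genes with the smallest p-values. In all, 59 members were called lower in Th1, Th2 and pTh17 alike, against 2.82% of all genes. Of these members 34 were also higher in Th17, against 0.42% of all genes, and 32 were also lower in Tr1, against 1.89% of all genes. Called in both directions across cultures were 49 members, where 13.5% of all genes were; with the length offset they were 13 members, where 14.9% of all genes were. Rps15a alone was lower in all 5 cultures and Rps27l alone higher in all 5; 1.39% of all genes were lower and 1.78% higher in all 5, so that 1 member each is near the share of all genes. Rps4y2 alone was called in none, where 21.4% of all genes were.

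Rps27l ran against the family in Th1, Th2, pTh17 and Tr1. In Th17 it rose, as most members did in the fit without the length offset. It encodes a close paralog of Rps27 in the small subunit and is known as a target of p53. In Th1 it had 108, 97.4 and 103 CPM in positive cells, against 60.4, 47.7 and 49.995 CPM in negative cells. In Th17 it had 97.8, 99.9 and 98.3 CPM in positive cells and 39.6, 37.6 and 36.0 CPM in negative cells. Positive libraries exceeded negative ones in both cultures by a wide margin. Tr1 positive cells had 55.6, 55.3 and 55.4 CPM and Tr1 negative cells 31.7, 32.2 and 42.0 CPM; Th2 positive cells had 143, 158 and 151 CPM and Th2 negative cells 97.0, 105 and 132 CPM. In pTh17 it had 106, 96.6 and 98.9 CPM in positive cells and 85.3, 71.7 and 86.3 CPM in negative cells. The log2 fold changes were 0.97 ± 0.10 in Th1, 0.43 ± 0.09 in Th2, 1.39 ± 0.10 in Th17, 0.31 ± 0.09 in pTh17 and 0.64 ± 0.12 in Tr1, with no overlap between the groups in any culture. The pTh17 call was lost without the first positive library (0.27) or the second negative library (0.23). The 5 differences were not equal (adjusted p = 8.64e-08 by edgeR's quasi-likelihood test).

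Rps27 itself was the noisiest member, with a median coefficient of variation of 33.8% over groups. In Th1 it had 419, 358 and 157 CPM in positive cells and 408, 630 and 627 CPM in negative cells, and in Th17 it had 398, 140 and 256 CPM in positive cells and 285, 647 and 530 CPM in negative cells. The groups overlapped in both cultures. The calls there (−0.84 ± 0.31 in Th1 and −0.88 ± 0.31 in Th17) were lost in Th1 without the second negative library (−0.74), the third negative library (−0.74) or the third positive library (−0.52), and in Th17 without the second negative library (−0.62) or the second positive library (−0.57). The gene was not called in Th2 (−0.57 ± 0.31), pTh17 (−0.65 ± 0.31) or Tr1 (−0.53 ± 0.31). Per length, Rps27l stood at 26.6 ± 15.5% of the TPM of Rps27 in Th1 positive cells, against 6.78 ± 2.72% in Th1 negative cells. The same ratio was 30.2 ± 16.4% in Th17 positive cells and 5.94 ± 3.03% in Th17 negative cells (SD, n = 3 each). In each culture the ratio was higher on average in positive cells.

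**Figure D4:**
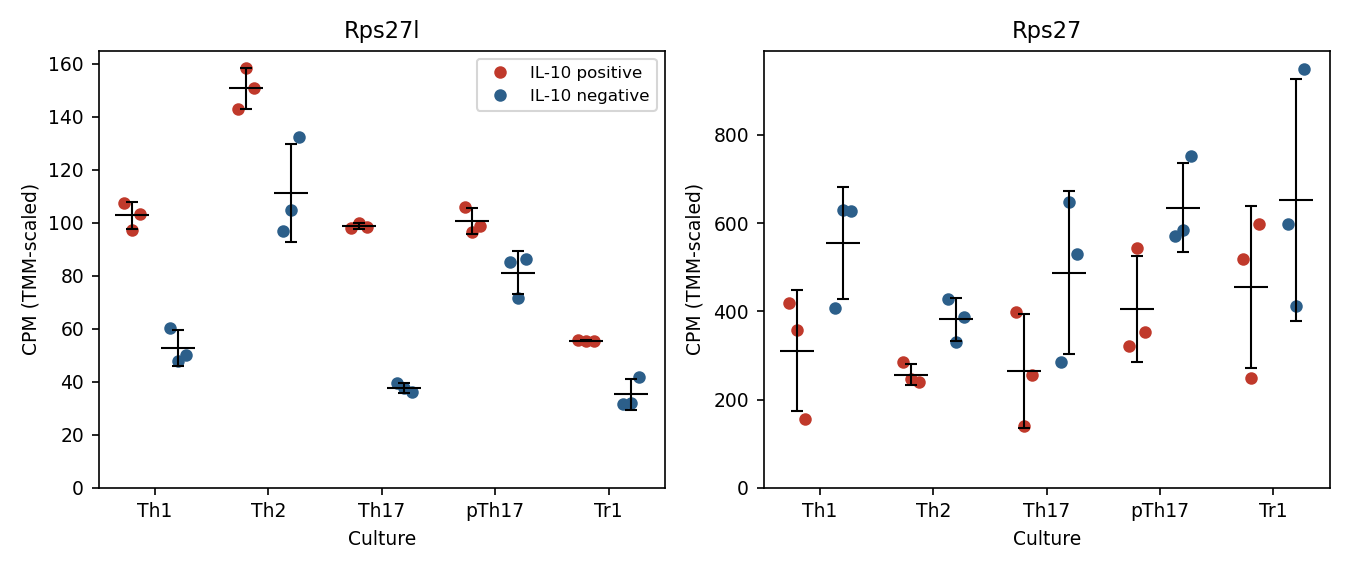
CPM of Rps27l (left) and Rps27 (right) on the y axis in each library (points) by culture, IL-10 positive in red on the left of each pair and negative in blue; black bars are mean ± SD (n = 3). Rps27l is higher in every red group without overlap, and Rps27 is lower in the red groups on average with wide spread.

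The other paralogs also departed from their partners, in direction or in size. Rpl7l1, a paralog of Rpl7, rose in Th17 to 136, 140 and 136 CPM in positive cells, against 80.9, 70.7 and 65.6 CPM in negative cells (0.92 ± 0.08), where Rpl7 was at 0.05 ± 0.06. It also rose in Tr1 (0.42 ± 0.08) and in Th1 (0.20 ± 0.08), while Rpl7 was at −0.14 ± 0.06 in Tr1 and fell in Th1 (−0.43 ± 0.06); the Th1 call of Rpl7l1 was lost in 4 of the fits that left out a library. Rpl22 is needed for the development of αβ T cells in mice. Its paralog Rpl22l1 was the more abundant of the pair per length, at 462 ± 18.7% of the TPM of Rpl22 in Th1 positive cells and 401 ± 34.7% in Th1 negative cells. This ratio was 474 ± 4.58% in Th2 positive and 367 ± 18.1% in Th2 negative cells. In all 5 cultures every positive library exceeded every negative one, narrowly so in Th1 (lowest positive 443.6%, highest negative 440.7%). In Th1 both fell, Rpl22l1 at −0.34 ± 0.09 and Rpl22 at −0.54 ± 0.08. In Th17 both rose, Rpl22l1 by 0.62 ± 0.09 and Rpl22 by 0.34 ± 0.08. Rpl22l1 is 477 bases long and Rpl22 2040 bases. Other genes under 1000 bases had a median log2 fold change of 0.25 in Th1, against −0.02 for all genes tested. These medians were 0.31 and −0.04 in Th17, 0.24 and 0.05 in Tr1, 0.03 and 0.01 in Th2, and −0.05 and −0.005 in pTh17. With the length offset Rpl22l1 was at −0.22 and Rpl22 at −0.33 in Tr1, against 0.10 and −0.15 without it. Rpl36al stood at 62.9 ± 2.08% of the TPM of Rpl36a in Th1 positive cells, against 40.3 ± 0.172% in Th1 negative cells. In Th17 its ratio was the lower one in positive cells, at 48.4 ± 2.30% against 55.8 ± 2.28% in negative cells, since Rpl36a (0.55 ± 0.08) rose more than Rpl36al (0.35 ± 0.08) there. Rpl36al was called in Th17 and in no other single culture. Rpl10l and Rpl39l, known from testis, and Rpl3l, known from striated muscle, were near 0 in all groups. Ratios of paralogs are levels per length, carry no test here, and may move with how shared reads were divided. The part of gene length in these ratios was not tested.

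**Figure D5:**
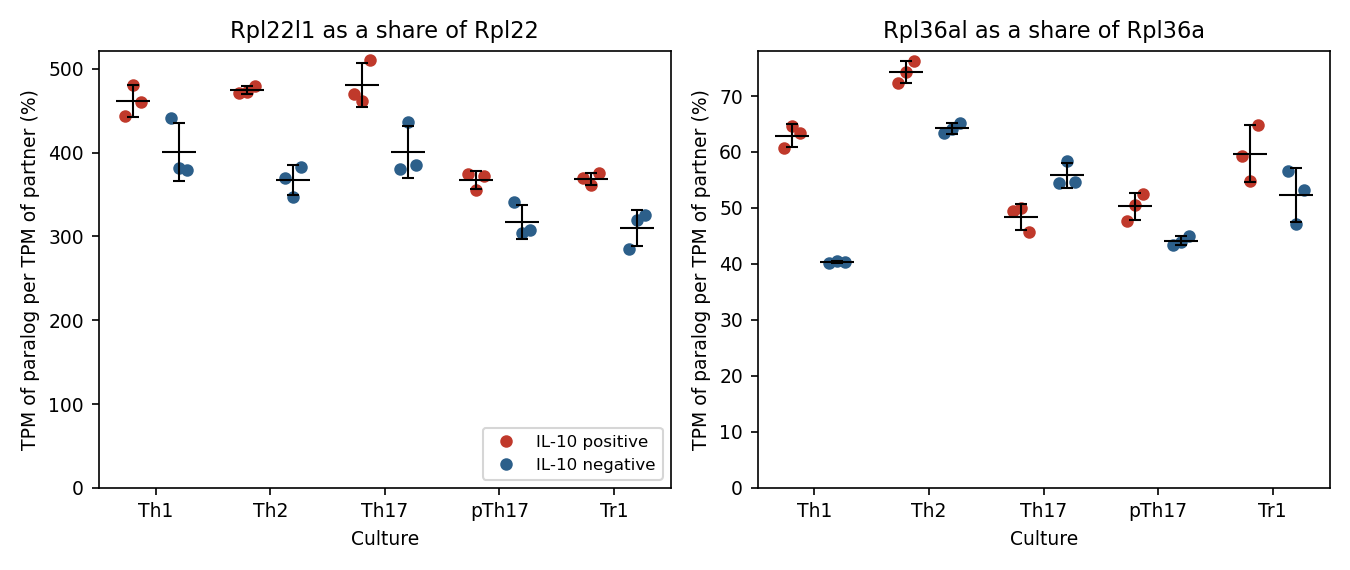
TPM of Rpl22l1 as a percent of Rpl22 (left) and of Rpl36al as a percent of Rpl36a (right) on the y axis in each library (points) by culture, IL-10 positive in red on the left of each pair and negative in blue; black bars are mean ± SD (n = 3). The Rpl22l1 ratio is higher in red in every culture on average, and the Rpl36al ratio is higher in red except in Th17, at 48.4 against 55.8%.

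The stalk genes followed the family. Rplp0 had 3617, 3467 and 3351 CPM in Th1 positive cells and 5001, 4737 and 4840 CPM in Th1 negative cells (−0.48 ± 0.06), and 3356, 3208 and 3178 CPM in Th17 positive cells and 2987, 2695 and 2730 CPM in Th17 negative cells (0.21 ± 0.06). Positive cells were thus lower in Th1 and higher in Th17 without overlap. Rplp1 stood out for its level in Th2 cultures, at 1957, 2047 and 1961 CPM in positive cells and 2226, 2195 and 2658 CPM in negative cells; in the other 4 cultures it lay between 605 and 1374 CPM in every library. Its partner in the stalk, Rplp2, had 442, 504 and 450 CPM in Th2 positive cells and 515, 508 and 590 CPM in Th2 negative cells, within the range of its other groups.

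Among the 5 cultures the members differed widely, as did most genes: 84 of 87 members differed among the IL-10 positive groups, where 92.2% of all genes did, and 84 among the negative groups, where 88.2% did. Of 87 members, 49 had their highest group mean in pTh17 negative cells and 23 in Th1 negative cells, while 57 had their lowest in Th17 negative cells and 11 in Tr1 positive cells. The gap between a member's highest and lowest group mean was 1.00 at the median on the log2 scale and at most 2.10.

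In the fit without the length offset, pTh17 cells held more of this family than Th17 cells. Among IL-10 negative cells 83 of 87 members rose in pTh17 relative to Th17 and 1 fell, where 31.1% of all genes were called higher (60% in all), with a median log2 fold change of 0.89 for members and −0.01 for all genes. Among IL-10 positive cells 67 rose and 3 fell, where 27.8% of all genes were called higher (56.7% in all), with medians of 0.43 and 0.00. Rpsa had 4164, 4021 and 4432 CPM in pTh17 negative cells, against 2011, 1701 and 1711 CPM in Th17 negative cells (1.22 ± 0.06), and 3565, 3553 and 3533 CPM in pTh17 positive cells, against 2920, 2749 and 2641 CPM in Th17 positive cells (0.36 ± 0.06). The member that fell among negative cells was Rpl30 (−0.44 ± 0.15), and Rpl30, Rpl7l1 and Rps19bp1 fell among positive cells (−1.15 ± 0.15, −0.53 ± 0.07 and −0.41 ± 0.17); Rpl30 was singled out after its values were seen. Without the offset, other genes under 1000 bases had medians of 0.53 among negative and 0.09 among positive cells. Members of that length had 0.87 and 0.42. With the length offset the split was 50 higher and 13 lower among negative cells, at a median of 0.20. Among positive cells it was 33 higher and 22 lower, at a median of 0.07. The shares of all genes called in that fit are not given here, so no direction is read from these counts. Library totals in place of TMM put the median of all genes at −0.15 among negative and −0.10 among positive cells and the members' medians at 0.74 and 0.32. B cell markers moved with this comparison: the 10 genes summed to 109 to 122 CPM in pTh17 negative cells, against 5.90 to 7.45 CPM in Th17 negative cells, and to 227 to 304 CPM in pTh17 positive cells, against 19.6 to 23.3 CPM in Th17 positive cells. None was at 0 in the pTh17 groups or in Th17 negative cells, Pax5 was at 0 in Th17 positive cells, and their part in the result was not tested.

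IL-10 positive Tr1 cells, set against the average of positive cells in the other 4 cultures, had no common direction in this family. Of 87 members 23 rose and 31 fell, where 33.3% of all genes were called higher and 32.3% lower (65.6% in all), and the median log2 fold change was −0.04. Rps27l was the lowest (−1.01 ± 0.09) and Rplp0 was higher (0.26 ± 0.04), while Rplp1 was lower (−0.35 ± 0.06). The balance depended on scaling: library totals in place of TMM gave 11 higher and 56 lower, with the median of all genes at −0.15 (members −0.20), and the length offset gave 53 higher and 15 lower. No direction for the family is therefore given for this comparison.

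Genes that act with the ribosome were described from lists of translation and ribosome genes, whose counts are to be read against the calls over all genes: 23.5% higher and 20.4% lower in Th1, 12.3% and 9.49% in Th2, 29.2% and 28.9% in Th17, 10.1% and 8.33% in pTh17, and 20.5% and 14.2% in Tr1, higher before lower. Fau carries the small subunit protein Rps30, and Gnb2l1 encodes the scaffold protein Rack1. Both fell in Th1 (−0.47 ± 0.07 and −0.40 ± 0.06) and in pTh17 (−0.40 ± 0.07 and −0.21 ± 0.06). In Th17 Gnb2l1 rose (0.45 ± 0.06) and Fau fell (−0.16 ± 0.07). A list of 18 genes with TOP mRNAs held translation factors together with other genes, among them Hnrnpa1, Npm1, Nap1l1 and Tpt1. Of these 18 genes 14 fell and 1 rose in Th1, 7 fell and 2 rose in Th2, and 2 fell and 13 rose in Th17. In pTh17 1 fell and 1 rose, and in Tr1 5 fell and 4 rose. The pTh17 counts and the Tr1 rises lie near the shares over all genes. Within this list Tpt1 (translationally controlled tumour protein) and Eif4a2 (an RNA helicase of initiation) moved against the ribosomal protein genes in Th17, falling by 0.70 ± 0.07 and 0.97 ± 0.06, and both fell in Tr1 and Th1 also. Hnrnpa1, an RNA-binding protein of splicing, rose in Th17 by 1.44 ± 0.05 and in Tr1 by 0.69 ± 0.05.

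Ribosome assembly factors were mostly higher in Th17 positive cells. Of 30 such genes 28 rose and none fell in Th17 (median log2 fold change 0.91), 9 rose and 3 fell in Tr1, 4 rose and 6 fell in Th1, 2 fell in Th2, and 1 rose and 1 fell in pTh17. Rrp12 and Nhp2, both of ribosomal RNA maturation, rose in Th17 by 1.60 ± 0.14 and 1.53 ± 0.10 and in Th1 by 0.72 ± 0.18 and 0.28 ± 0.11. In Th1, Th2 and pTh17 no more assembly genes were called in either direction than the shares over all genes would give. Mitochondrial ribosomal protein genes rose in 64 of 76 cases in Th17 and none fell (median 0.60). In this list 28 rose and 5 fell in Th1, 30 rose and 3 fell in Tr1, 7 rose and 3 fell in Th2, and 5 fell in pTh17. Counts of all these lists come from the fit without the length offset, and their values with it are not given here. Of 16 genes of translation control, 6 rose and 4 fell in Th17 and 5 rose and 5 fell in Th1, with fewer calls in Th2 (2 higher, 1 lower), pTh17 (1 higher) and Tr1 (4 higher, 1 lower), and these counts lie near the shares over all genes. Eif4e, which binds the mRNA cap, rose in all 5 cultures, by 0.42 ± 0.08 in Th1, 0.30 ± 0.07 in Th2, 0.78 ± 0.07 in Th17, 0.25 ± 0.07 in pTh17 and 0.63 ± 0.08 in Tr1. Eif4ebp1, which inhibits Eif4e, rose in Th1, Th2 and Th17, by 0.76 ± 0.14, 0.77 ± 0.12 and 1.36 ± 0.15.

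Markers of other cells moved with the IL-10 sort in some cultures beside these results. The 4 NK cell genes summed to 81.2 to 85.1 CPM in Th1 positive cells and 6.53 to 8.51 CPM in Th1 negative cells, with both tested genes higher, Ncr1 at 0 in Th1 positive and Klre1 at 0 in Th1 negative cells. In Tr1 they summed to 59.2 to 68.5 CPM in positive cells and 5.41 to 5.89 CPM in negative cells, with 1 of 2 tested genes higher and Klre1 at 0 in both. The 8 myeloid genes summed to 69.0 to 78.5 CPM in Th1 positive cells and 17.1 to 24.1 CPM in Th1 negative cells, with 2 of 6 tested genes higher and Emr1 at 0 in Th1 negative cells; in Tr1 they summed to 17.9 to 19.1 CPM in positive cells and 5.08 to 6.81 CPM in negative cells, with 1 of 6 tested genes higher and Lyz2 at 0 in positive cells. The 10 B cell genes summed to 43.5 to 54.2 CPM in Th1 positive cells and 16.6 to 18.8 CPM in Th1 negative cells, with 2 of 8 tested genes higher and Pax5 at 0 in both. In Th2 they summed to 47.4 to 63.4 CPM in positive cells and 40.3 to 43.6 CPM in negative cells, with 2 of 8 higher and Pax5 at 0 in negative cells. The CD8 T cell genes Cd8a and Cd8b1 were both higher in positive cells of 3 cultures: they summed to 30.3 to 36.5 CPM against 20.0 to 27.6 CPM in negative cells of Th1, 17.01 to 18.8 CPM against 9.41 to 12.2 CPM in negative cells of Th2, and 42.7 to 51.4 CPM against 23.7 to 27.3 CPM in negative cells of Tr1. Rn45s moved in the same direction as the family in Th1, at 10.7 to 12.2% of counts in positive cells and 16.8 to 21.3% in negative cells, and against it in Th17, at 13.7 to 17.5% in positive cells and 17.3 to 19.8% in negative cells, where the ranges overlapped. Their part in the changes of ribosomal protein genes was not tested. Without Rn45s, and with library totals in place of TMM, 77 members were lower in Th1 and 51 were higher in Th17. The median of all genes was then at −0.12 and −0.10. The shares of all genes called in that fit are not given here.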

How the data were processed

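RNA was measured in 30 libraries, 3 in each of 10 groups, with group and replicate number from the titles. Per the labels' protocols, poly-A RNA of 2000 lysed cells was amplified by a variant of SMART-Seq 2, a chemistry that marks neither molecules nor strand, so overlapping genes and near-identical copies may share reads. The authors deposited RSEM expected counts, TPM and FPKM per gene, per the file headers, with gene length and effective length as other measures, per the file headers; FPKM was not analysed. RSEM and the mm10 build come from the submitters' processing notes; the aligner is not given in the sources used here.

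Expected counts were rounded. filterByExpr left 12611 of 23420 genes, scaled by TMM. edgeR 4.0.16 (R 4.3.3) fitted 1 quasi-likelihood model with a mean per group; two-sided p-values were adjusted by Benjamini-Hochberg over all genes and called under 0.05. Each SE was obtained by dividing a log2 fold change by the root of its F statistic. For CPM, library sizes were scaled by TMM; TPM served for shares and for levels between genes. DESeq2 1.42.0 was an alternative test. The length offset removed, per library, a loess curve of log CPM (prior count 2, span 0.5) on gene length. Replicates differed by more than sampling noise (chi-square per degree of freedom 2.85 to 12.4 over all genes and 3.21 to 53.5 over members). The fit was tested on simulated data.

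Members and lists were chosen with earlier results of these data known. Named were the 4 highest and 4 lowest called members per IL-10 comparison at 5 CPM or more, the 8 smallest p-values of equality, the 5 highest and 5 lowest canonical levels, paralogs, stalk genes, Rpsa, up to 4 genes per list, and any said to be chosen later; some that this rule names are not reported here. Mouse gene coordinates and promoters came from RefSeq, GRCm38.p6; all 91 members matched. Protein sequences were not used here. Intervals and tests cover these libraries only.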

Additional observations from a re-analysis of the deposited data

Results flagged for a closer look

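The difference between IL-10 positive and negative cells was unequal over the 5 cultures in 83 of 87 ribosomal protein genes by edgeR's quasi-likelihood test, where 60.7% of all genes were. Genes with small adjusted p-values of that test were Rpsa (1.07e-12), Rpl4 (1.3e-12), Rpl3 (9.06e-12), Rpl10a (2.3e-11), Rpl15 (3.24e-11), Rpl7a (5.63e-10) and Rpl36a (7.21e-10). Rpl10a had log2 fold changes of −0.61 in Th1, −0.26 in Th2, 0.46 in Th17, −0.25 in pTh17 and −0.11 in Tr1. In the same order Rpl15 had −0.51, −0.17, 0.53, −0.19 and −0.09. Rpl7a had −0.22, −0.13, 0.57, −0.18 and 0.21, and Rpl36a had −0.52, −0.22, 0.55, −0.30 and −0.07. Each of these genes rose in Th17 and fell in Th1 in the fit without the length offset. They were picked by this test, so their unequal differences are no further support for it. With the offset 83 members passed this test as well, and the share of all genes that passed there is not given. Members called in both directions across cultures were then 13, where 14.9% of all genes were. Without the offset they were 49, where 13.5% of all genes were.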

How the results depend on the processing

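The offset for gene length moved the balance of calls in Th17 (58 called, 18 higher and 40 lower), where the members' median then lay close to that of all genes. It also moved the balance in Tr1 against the other IL-10 positive groups (68 called), and raised the Tr1 count to 80. Together with the replicate block the offset gave 57 in Th17 and 80 in Tr1. The Tr1 count was 72 with no filter on low counts, and also 72 without Rn45s and with library totals only, an alternative chosen after seeing the data, as were thinning and the TPM share without Rn45s. The Th17 log2 ratio of the summed share was 0.067 on TPM and 0.234 on expected counts. Leaving out 1 library gave 76 to 79 calls in Th1, 27 to 62 in Th2, 48 to 65 in Th17, 52 to 73 in pTh17, 22 to 54 in Tr1, 78 to 81 for the mean, 82 to 84 for equality, 82 to 85 and 84 to 85 among positive and negative cultures, 48 to 56 for Tr1 against the others, and 65 to 71 and 83 to 85 for pTh17 against Th17 in positive and negative cells. Samples with the same replicate number did not deviate together over all genes (correlations of −0.046 to 0.0546), and the labels do not say what the numbers mark; over members alone the 3 Tr1 pairs were at 0.208 to 0.246 and those of other cultures ran from −0.326 to 0.587. With the replicate block the counts were 79, 63, 60, 74 and 44 in Th1, Th2, Th17, pTh17 and Tr1, 79 for the mean and 84 for equality. Of 1051 alternative values of 21 single genes 992 kept direction and call, 37 lost the call, 13 gained it and 9 changed sign. The sign changes were those of Rpl22l1 in Tr1 (0.10 and not called as reported, −0.0029 with no filter, −0.22 and called lower with the length offset, −0.22 with block and offset), Rpl41 in Tr1 (−0.00906 and −0.00940 with the same offsets), Rpl22l1 in Th2 (−0.00113 without the first negative library, −0.031 without the second, up to 0.14 without the third, −0.0015 without Rn45s) and Rpl22l1 in pTh17 (0.022 without the first negative library, down to −0.14 without the second). The cause was not tested. The SE of a member's log2 fold change was 0.31 for Rps27 and 0.05 for Rpl4, so differences of the size seen in most members were not detectable for Rps27 at this depth and spread.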
